A study of Arabidopsis thaliana with 8 samples.

Results

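The genes described here encode the cytosolic small-subunit ribosomal proteins (RPS proteins) of Arabidopsis, taken here as 52 loci in 21 families. A locus was measured when a probe set of the array matched that 1 gene alone and its name lacked the endings _s_at and _x_at, which mark probe sets that match several sequences. This held for 30 of the 52 loci, from 16 families, and 28 loci of 15 families exceeded the 40th percentile of an array at least once and were kept for the comparisons, among 8399 genes kept of 13074 named. Of the 22 loci that were not measured, 7 had only a probe set shared with another gene or with such an ending and 15 had none in the naming table. The 22 loci include both listed RPS6 genes and both listed RPSA genes.

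Cytosolic ribosomes translate the mRNAs of nuclear genes. The small subunit binds the mRNA and holds it while tRNAs decode it, and the large subunit joins the amino acids. The small subunit is built around the 18S rRNA, which is cut out of a long precursor in the nucleolus by a large particle, the SSU processome, and some RPS proteins join the rRNA at that early stage. In plants nearly every RPS protein is encoded by more than 1 gene, and the paralogs of a family encode closely similar proteins. In the shoot apex these genes are known to be strongly expressed, and dividing and growing cells make many ribosomes.

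Shoot apices of 15-day-old plants of 4 genotypes in the Col-0 background, grown on soil in long days at 22°C or 26°C, were each measured on 1 ATH1 array, giving 8 arrays. Col-0 was the wild type. The as2-1 mutant lacks functional AS2, which acts with AS1 as a repressor complex in leaf primordia and is needed for the upper (adaxial) side of the leaf. The rh10-1 mutant carries a recessive point mutation, described as temperature-sensitive, in RH10, a nucleolar DEAD-box RNA helicase whose yeast and human counterparts, Rrp3 and DDX47, belong to the SSU processome, and as2-1 rh10-1 carries both mutations. The rh10-1 allele had been found as an enhancer of the as2-1 leaf defect. Each mutation was represented by 1 allele, the 4 arrays of a temperature formed 1 set, and no condition had a second array. Temperature and array set therefore cannot be told apart, and a genotype difference at 1 temperature can be checked only between the wild-type and the mutant background.

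The values are hybridisation signals on a linear scale that had already been scaled between arrays, with trimmed means of 198.1 to 198.4 (2% of probe sets trimmed at each end) and medians of 69.65 to 79.9. A signal depends on the probe set, so that signals of different genes are not compared as amounts of RNA. The signals of the 28 genes ranged from 136.6 to 11320.7. Where 4 values of 1 temperature are listed below, their order is Col-0, then as2-1, then rh10-1, then the double mutant. RH10 itself (AT5G60990) gave 352.2, 439.1, 677.1 and 553.8 at 22°C, and 347.8, 293.4, 394.1 and 261.1 at 26°C. Since rh10-1 changes 1 base and leaves the transcript in place, this signal does not check the labels. AS2 was not analysed here. Of the 4 measured marker genes of the apex and leaf primordium, YAB3 (270.0 to 508.1), YAB5 (62.6 to 245.8) and PHV (214.2 to 494.2) were kept on these arrays, and the stem cell marker CLV3 (0.9 to 26.8) stayed under the 40th percentile on all 8. All 3 measured markers of expanded leaves were kept as well, with signals from 1531.4 to 9245.0.

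The level of the family, taken as the median over the 28 genes, differed between the arrays. The median log2 signal, as the deviation from each gene's own mean over the 8 arrays, had values of -0.09, 0.20, 0.65 and 0.48 at 22°C. At 26°C the medians were -0.22, -0.43, -0.19 and -0.44. This median was thus highest in the 2 arrays with rh10-1 at 22°C and lower on every array at 26°C than on any array at 22°C. In apices measured whole, fewer cells of a type and less RNA per cell cannot be told apart.

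**Figure D1:**
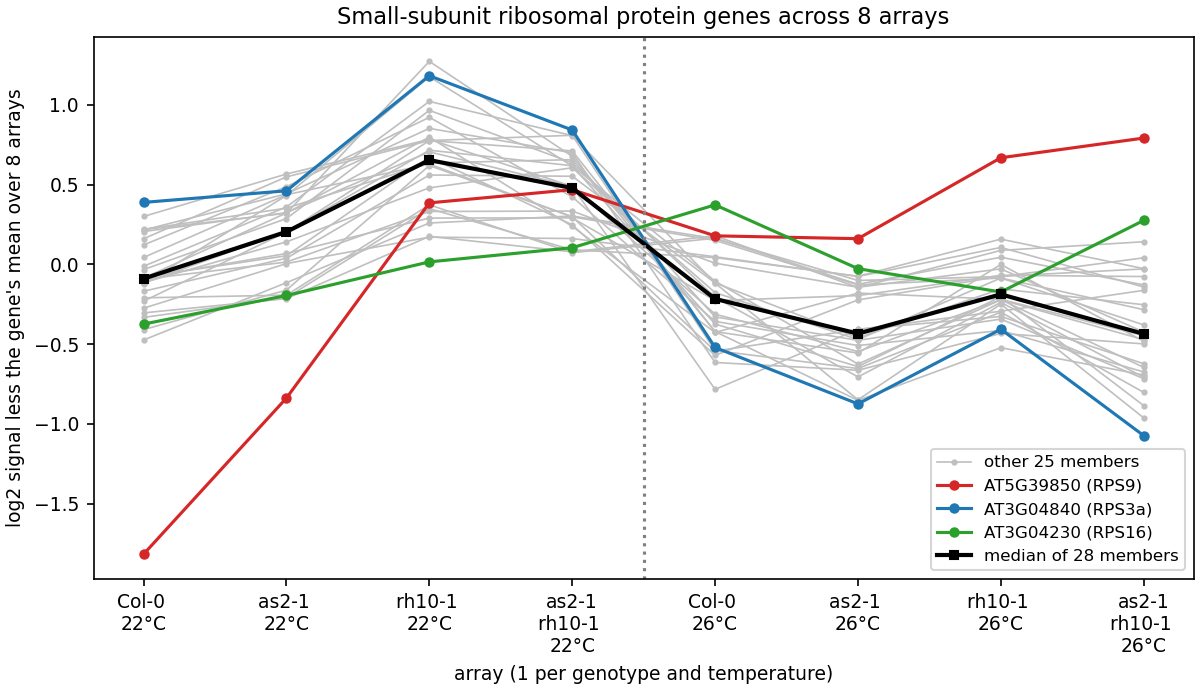
Log2 signal of each of 28 small-subunit ribosomal protein genes less its own mean, on 8 arrays (x axis, 1 array per genotype and temperature). Grey lines are single genes, the black line is the median of the 28, which peaks at 0.65 in rh10-1 at 22°C, and the coloured lines are the 3 genes that depart most from that median.

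The strongest departure between genotypes was that of rh10-1 at 22°C, where all 28 genes had a positive rh10-1 effect, against 47.5% of all genes. The effect is the mean of 2 log2 ratios, rh10-1 to Col-0 and as2-1 rh10-1 to as2-1. Its median over the 28 genes was 0.46, or 1.38-fold, while the median over all 8399 genes was -0.02. Both rh10-1 arrays exceeded both other 22°C arrays in 24 of the 28 genes, or 85.7%, beside a background of 22.6% of all genes. The 4 exceptions were AT2G17360 and AT5G07090 (RPS4), AT5G09510 (RPS15, a protein of the subunit's head) and AT3G04920 (RPS24). Few single genes passed a test. With limma and Benjamini-Hochberg adjustment over all genes, 1 of the 28 was called higher, beside 0.25% of all genes, and 13 had a positive effect with an unadjusted p under the 0.05 threshold, as had 564 of the 8399 genes.

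The gene called was AT5G39850, a paralog with low signals from the RPS9 family, which encodes a protein of the body of the small subunit. It had a 22°C signal of 136.6 without either mutation, 269.2 with as2-1, 628.6 with rh10-1 and 665.6 with both. The arrays with rh10-1 were separate from those without it, and the single as2-1 array lay between them. The effect was 1.75 ± 0.23 (SE), or 3.37-fold (limma adjusted p = 0.0119). Its paralog AT5G15200 gave 8728.3, 9698.1, 11310.4 and 11320.7, with an effect of 0.30 ± 0.22 (SE) that did not pass the test (limma adjusted p = 0.602). The gap between the effects of the paralogs was 1.46 in RPS9, while its median over the 9 families with at least 2 kept genes was 0.21. These gaps were not tested. The call was lost in a fit without the intensity trend and when any 1 of the 4 arrays at 22°C was left out, in which case a single background remains for the effect.

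The rh10-1 effect at 22°C was larger in the wild-type background for every one of the 28 genes, beside 45.8% of all genes. The 28 genes share the same arrays, with 1 per condition, and were not counted as replicates. This difference equals the departure from additivity at 22°C given below, with its sign changed. The ratio of rh10-1 to Col-0 was above 0 on the log2 scale in 28 of 28 genes, with a median of 0.71 and a range of 0.37 to 2.20. The ratio of as2-1 rh10-1 to as2-1 was above 0 in 24 of 28, with a median of 0.30. Over all genes these medians were -0.06 and 0.02.

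**Figure D2:**
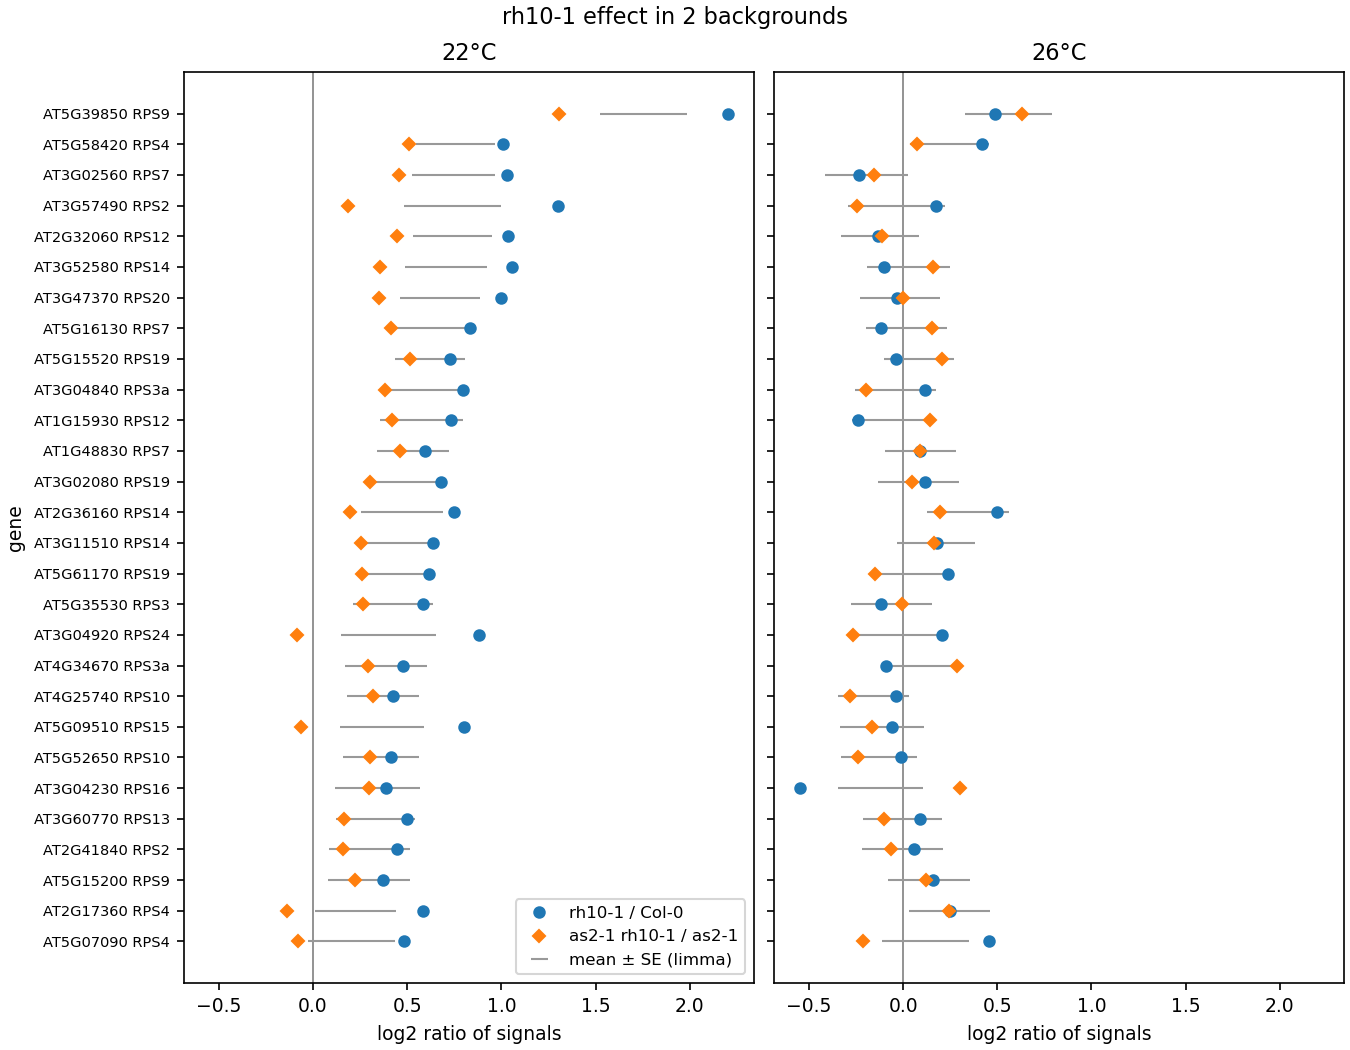
Log2 ratio of signals with and without rh10-1 for 28 genes at 22°C and 26°C, in the wild-type background (circles) and the as2-1 background (diamonds), with grey bars for the limma mean ± SE. At 22°C all 28 means lie above 0, led by AT5G39850 at 1.75, whereas at 26°C 14 of the 28 do.

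At 26°C the family showed no common rh10-1 effect in the main fit. The effect was above 0 in 14 of 28 genes, with a median of 0.0072. A fit with an added as2-1 by rh10-1 term gives another quantity, the rh10-1 effect in the wild-type background. That effect was above 0 in 22 of 28 genes at 26°C, with a median of 0.13. Both rh10-1 arrays exceeded both others in 5 of the 28, beside 20.6% of all genes, a share near the background. No gene of the family was called by limma, beside 2.38% of all genes. An unadjusted p under 0.05 was found for 1353 of the 8399 genes and, in the family, for AT5G39850 (RPS9) alone. It gave 544.7, 538.0, 764.7 and 833.0 at 26°C, an effect of 0.56 ± 0.23 (SE; limma adjusted p = 0.260), and the arrays with rh10-1 were again above the others.

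The difference of the rh10-1 effect between temperatures was below 0 in 27 of 28 genes, with a median of -0.48. None passed the limma test of that difference, beside 0.56% of all genes. An unadjusted p under 0.05 was found for 4, all below 0, and for 1201 of the 8399 genes, 572 of them below 0. AT5G39850 came nearest to passing the limma test, with a difference of -1.19 ± 0.32 (SE; limma adjusted p = 0.144). After quantile normalization the difference was below 0 in 23 of 28 genes. The direction was thus shared by most of the family, and no single gene passed the test.

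Between temperatures the family was mostly lower at 26°C. With genotype as a block, limma called 17 of the 28 genes lower at 26°C, or 60.7%, beside 17.1% of all genes, and 1 gene higher, beside 21.4% of all genes. The median log2 difference was -0.67 for the family and 0.06 for all genes. After quantile normalization the median of the family was -0.46, with 8 of the 28 genes above 0. In 13 of the 28 genes all 4 arrays at 26°C lay below all 4 at 22°C, beside 16.7% of all genes. The decrease was smallest in Col-0, where the log2 ratio of 26°C to 22°C had a median of -0.16. In Col-0, 11 of the 28 genes lay above 0, beside 53.6% of all genes. The medians of the mutants were -0.69 (as2-1), -0.85 (rh10-1) and -0.89 (the double mutant).

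The largest called decreases were in RPS3a, RPS14 and RPS19, and the RPS14 gene is described with its family below. AT3G04840 (RPS3a, near the exit of the mRNA channel) gave 6034.3, 6346.4, 10462.1 and 8263.8 at 22°C, and 3213.0, 2514.4, 3477.8 and 2190.5 at 26°C. The sets did not overlap, and the gene fell by 1.44 ± 0.19 (SE; limma adjusted p = 6.86e-04). AT5G61170 (RPS19, in the head of the subunit) gave 3967.3, 5190.2, 6078.0 and 6219.3 at 22°C and 2441.1, 2257.5, 2883.7 and 2035.0 at 26°C, again without overlap, and fell by 1.15 ± 0.18 (SE; limma adjusted p = 0.00147).

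The gene called higher at 26°C was AT5G39850 (RPS9), which rose by 0.90 ± 0.27 (SE; limma adjusted p = 0.0277). Its log2 ratio of 26°C to 22°C was 1.996 for Col-0 and 0.999 for as2-1, but 0.28 for rh10-1 and 0.32 for the double mutant. The low 22°C signals of Col-0 and as2-1, 136.6 and 269.2, were the lowest of its 8 arrays, and the call was lost without the Col-0 or the as2-1 array of either temperature and without the intensity trend. Its paralog AT5G15200 gave 7903.7, 8076.1, 8821.0 and 8772.7 at 26°C, a log2 difference of -0.28 ± 0.15 (SE; limma adjusted p = 0.165).

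Paralogs of 1 family often differed in their temperature difference. The median gap between the most and the least changed paralog was 1.02 on the log2 scale over the 9 families. The corresponding median for the rh10-1 effect at 22°C was 0.21, and the 2 medians were not tested against each other. The gap between each pair of paralogs was compared between the 4 arrays of each temperature, in all 17 pairs that the 9 families allow. In 12 pairs, at least 1 in each of the 9 families, the gap did not overlap between the temperatures. Over all pairs of the 8399 genes tested, related or not, 37.5% had a gap that did not overlap between the temperatures, so that such a gap was common in any pair of genes on these arrays. In these same 12 of the 17 pairs the gap moved the same way in all 4 genotypes. Gaps that do not overlap must do so, and this is no further result. Pairs of a family with 3 genes share a gene, and the gaps between temperatures were not tested. The paralogs of RPS3a, RPS12, RPS19, RPS2 and RPS10 are named here after their values were seen.

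In RPS3a, AT4G34670 gave 5055.1, 5378.2, 7048.2 and 6590.5 at 22°C, and 7067.8, 5644.9, 6631.9 and 6886.1 at 26°C. These sets overlapped, with a difference of 0.13 ± 0.16 (SE; limma adjusted p = 0.542), so that its gap to AT3G04840 shifted by 1.57. In RPS12, AT1G15930 gave 4863.2, 6238.7, 8085.4 and 8336.2 at 22°C and 7556.9, 6299.1, 6405.6 and 6950.4 at 26°C, whereas AT2G32060 gave 2540.5, 3287.5, 5199.8 and 4481.5 at 22°C and 2361.2, 1422.4, 2154.8 and 1314.7 at 26°C. AT2G32060 fell by 1.09 ± 0.25 (SE; limma adjusted p = 0.00824) and AT1G15930 differed by 0.01 ± 0.19 (SE; limma adjusted p = 0.964), so that the first separated by temperature and the second did not.

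In RPS19, beside the decrease of AT5G61170 given above, AT5G15520 differed by -0.49 ± 0.18 (SE; limma adjusted p = 0.0532) and AT3G02080 by 0.05 ± 0.16 (SE; limma adjusted p = 0.832). In RPS2, which lies at the entry of the mRNA channel, AT3G57490 gave 598.3, 878.7, 1472.1 and 999.0 at 22°C and 502.7, 417.9, 566.3 and 352.7 at 26°C, and AT2G41840 gave 5895.9, 7156.8, 8028.5 and 7979.8 at 22°C and 7372.5, 6767.6, 7677.5 and 6464.6 at 26°C. The first gene was lower at 26°C without overlap, whereas the sets of the second overlapped. AT3G57490 fell by 1.05 ± 0.21 (SE; limma adjusted p = 0.00494) and AT2G41840 differed by -0.03 ± 0.16 (SE; limma adjusted p = 0.897). Their rh10-1 effects at 22°C were 0.74 ± 0.26 (SE; limma adjusted p = 0.270) and 0.30 ± 0.22 (SE; limma adjusted p = 0.590), the third widest gap of that effect among the 9 families. The RPS10 pair was the most even across genotypes. The gap of AT4G25740 to AT5G52650 was -0.53 ± 0.02 (SD, n = 4 arrays) at 26°C and -1.17 ± 0.01 (SD, n = 4 arrays) at 22°C, and its shift lay between 0.61 and 0.67 in all 4 genotypes.

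**Figure D3:**
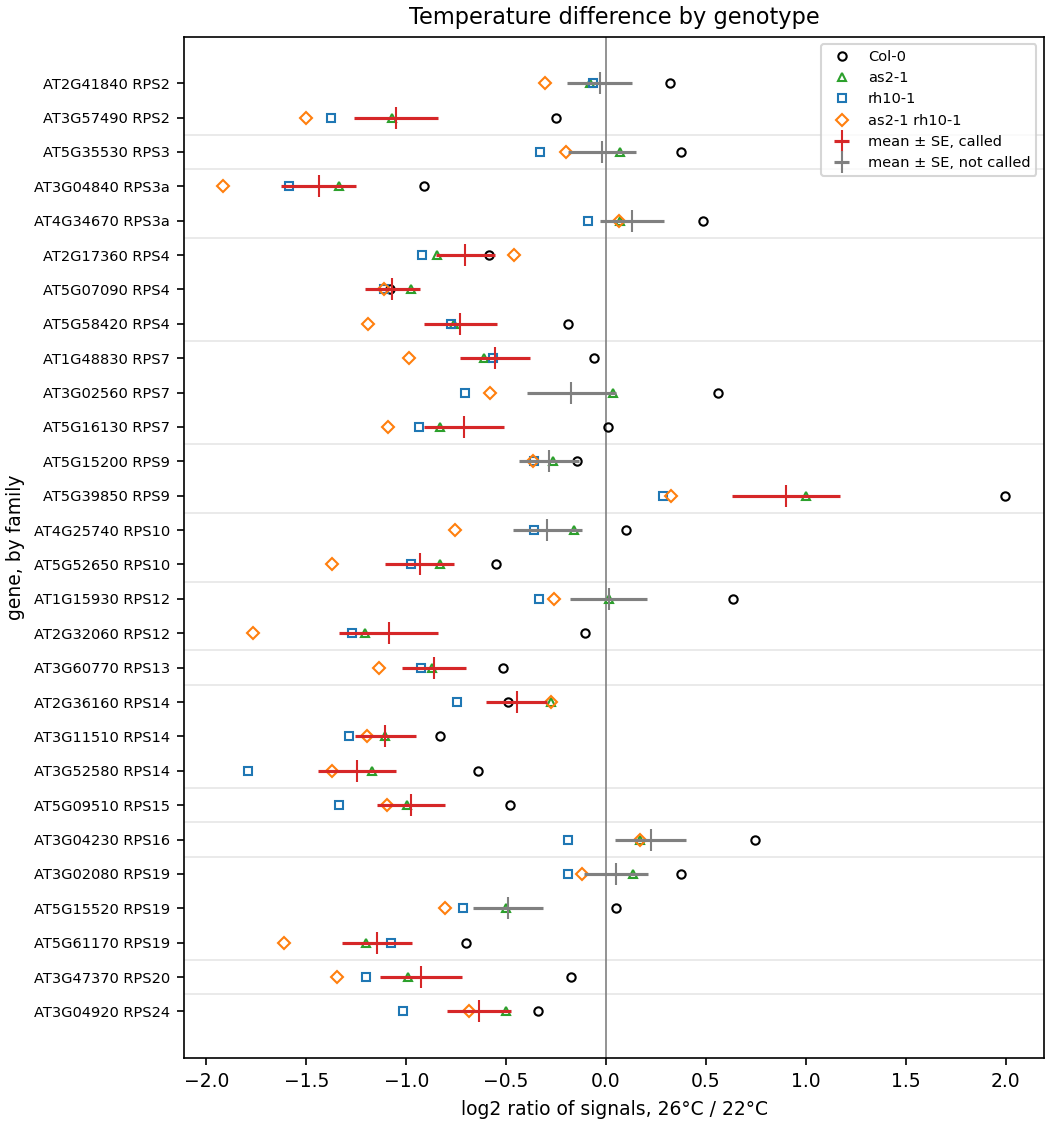
Log2 ratio of signals at 26°C to 22°C for 28 genes grouped by family, with 1 open symbol per genotype and a vertical tick with a bar for the limma mean ± SE (red where called, grey where not). Of the 18 genes called, 17 lie below 0, and families such as RPS3a hold 1 called gene (AT3G04840, -1.44) and 1 near 0 (AT4G34670, 0.13).

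Signal level and the temperature difference were also set side by side. Across the 28 genes, Spearman's rho between mean log2 signal and the temperature difference was 0.22, a description over genes measured on the same arrays. The 14 genes with the higher mean signals had a median temperature difference of -0.37, with 7 called, and the 14 with the lower had -0.72, with 11 called. The difference between these sets was not tested. The part of signal level in the paralog gaps was not tested.

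The yeast counterparts of RPS4, RPS6, RPS7, RPS9 and RPS14 are components of the SSU processome, and 11 genes of 4 of these families were kept here. RPS4 and RPS7 proteins lie in the body of the subunit, and RPS14 lies on its platform. All 3 RPS4 genes were lower at 26°C. AT5G07090 gave 3092.6, 3719.3, 4323.4 and 3524.6 at 22°C, and 1459.5, 1893.0, 2003.2 and 1631.1 at 26°C, without overlap, and fell by 1.07 ± 0.14 (SE; limma adjusted p = 6.48e-04). AT2G17360 gave 1980.6, 2601.4, 2971.9 and 2364.3 at 22°C and 1318.8, 1449.1, 1568.3 and 1717.2 at 26°C, also without overlap, and fell by 0.70 ± 0.15 (SE; limma adjusted p = 0.00627). AT5G58420 gave 2415.9, 3264.1, 4853.8 and 4643.0 at 22°C and 2117.6, 1928.8, 2834.1 and 2029.9 at 26°C. These sets overlapped in rh10-1 at 26°C, and the gene fell by 0.73 ± 0.18 (SE; limma adjusted p = 0.0129), a call that was lost without the as2-1 or the rh10-1 array of either temperature.

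At 22°C the rh10-1 effects of the RPS4 genes covered a wide range. AT5G58420 had an rh10-1 effect of 0.76 ± 0.21 (SE; limma adjusted p = 0.217), the second highest of the 28 genes, with the 2 arrays carrying rh10-1 above the others. AT2G17360 and AT5G07090 had the lowest effects of the 28, 0.22 ± 0.21 (SE; limma adjusted p = 0.706) and 0.20 ± 0.23 (SE; limma adjusted p = 0.768), and in both the as2-1 array lay above that of the double mutant. The gap of 0.55 between AT5G58420 and AT5G07090 was the second widest among the 9 families and was not tested.

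The 3 RPS7 genes had rh10-1 effects of 0.53 to 0.74 at 22°C, none of them called. AT1G48830 gave 2687.8, 3209.0, 4057.3 and 4426.8 at 22°C, and 2573.6, 2099.1, 2742.2 and 2237.3 at 26°C. AT5G16130 gave 4286.1, 5355.3, 7629.4 and 7131.8 at 22°C and 4319.0, 3012.7, 3983.4 and 3350.0 at 26°C. In both genes Col-0 was nearly the same at both temperatures, and the mutants were lower at 26°C. They fell by 0.56 ± 0.18 (SE; limma adjusted p = 0.0344) and 0.71 ± 0.20 (SE; limma adjusted p = 0.0220), and each call was lost when any mutant array was left out, after quantile normalization, with no filter and without the intensity trend. AT3G02560 gave 3881.0, 4607.6, 7916.2 and 6333.7 at 22°C and 5719.1, 4713.2, 4855.7 and 4232.5 at 26°C, so that Col-0 went up with temperature and both genotypes with rh10-1 went down. Its temperature difference was -0.17 ± 0.22 (SE; limma adjusted p = 0.563).

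The RPS14 genes were all called lower at 26°C. AT3G52580 gave 2818.7, 3025.3, 5852.5 and 3874.6 at 22°C, and 1809.3, 1342.0, 1687.0 and 1498.3 at 26°C, and fell by 1.24 ± 0.20 (SE; limma adjusted p = 0.00156). AT3G11510 gave 5373.5, 6288.8, 8356.8 and 7516.4 at 22°C and 3022.3, 2922.0, 3429.0 and 3276.5 at 26°C, and fell by 1.10 ± 0.15 (SE; limma adjusted p = 8.67e-04). In both genes the temperatures did not overlap. AT2G36160 gave 3608.9, 3958.1, 6074.1 and 4527.7 at 22°C and 2567.6, 3266.6, 3620.5 and 3738.0 at 26°C, with overlap, and fell by 0.45 ± 0.15 (SE; limma adjusted p = 0.0467), the weakest of the called decreases, which 10 of 15 alternative settings did not keep. The rh10-1 effects of the RPS14 genes at 22°C were 0.45 to 0.71, none of them called, and in all 3 genes rh10-1 had the highest signal.

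The gene that departed most from the median pattern after AT5G39850 was AT3G04230 (RPS16, which reaches towards the tRNA in the P site). It gave 312.8, 354.2, 409.9 and 435.9 at 22°C, and 525.1, 398.0, 359.6 and 490.8 at 26°C. The order of genotypes thus differed between temperatures, with rh10-1 the lowest array at 26°C. Its temperature difference was 0.22 ± 0.18 (SE; limma adjusted p = 0.342), and its deviation from the median pattern had an SD of 0.51 over the 8 arrays, against 0.99 for AT5G39850 and 0.45 for AT3G04840, the next gene. At the other end, AT5G09500 (RPS15), a neighbour of AT5G09510 on the chromosome, gave only 7.2 to 23.2, and AT2G39590 (RPS15a) gave 1.1 to 18.2. These 2 genes stayed under the 40th percentile on all 8 arrays and were not tested.

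The as2-1 effect, the mean of its log2 ratios in the wild-type and the rh10-1 background, was called for no gene of the family at either temperature. The as2-1 array against Col-0 alone was not tested. At 22°C the as2-1 array exceeded Col-0 in 28 of 28 genes, with a median log2 ratio of 0.25, but as2-1 rh10-1 exceeded rh10-1 in 8 of 28, with a median of -0.18. The mean effect had a median of 0.03, none of the 28 genes was called by limma, beside 0.0952% of all genes, and 1 had an unadjusted p under 0.05, as had 327 of the 8399 genes. At 26°C as2-1 was lower in both backgrounds in 19 of 28 genes, against 2556 of the 8399. The mean effect was below 0 in 75% of the 28 genes, beside 51.8% of all genes, and its median over the 28 was -0.23. None was called there either, beside 0.0357% of all genes. An unadjusted p under 0.05 was found for 3, all lower, and for 960 of the 8399 genes, 547 of them lower. The lowest was AT2G32060 (RPS12), with an effect of -0.72 ± 0.21 (SE; limma adjusted p = 0.294). The difference of the as2-1 effect between temperatures had a median of -0.28. None of the 28 was called by limma, beside 0.0119% of all genes. An unadjusted p under 0.05 was found for 1 of the 28, and for 497 of the 8399 genes. That median was -0.05 without the Col-0 or the as2-1 array at 22°C and -0.43 without either rh10-1 array at 22°C.

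The study set each mutant against Col-0 and looked for genes raised in as2-1 rh10-1. The double mutant and Col-0 are compared here without a test, since each has 1 array per temperature. At 22°C as2-1 rh10-1 was above Col-0 in 28 of 28 genes, with a median log2 ratio of 0.46. The ratio was at least 1.5-fold in 11 genes, beside 12.5% of all genes, and 5 genes passed that fold after quantile normalization. No gene was at least 1.5-fold lower, beside 12.6% of all genes. At 26°C the median was -0.20, with 6 of 28 genes above 0. There 1 gene was at least 1.5-fold higher, beside 16.3% of all genes, and this was AT5G39850 (RPS9). The gene at least 1.5-fold lower was AT2G32060 (RPS12), beside 18.3% of all genes.

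At 22°C the double mutant lay below the sum of the single mutants in the whole family. The log2 ratio of as2-1 rh10-1 to Col-0, less the ratios of both single mutants, was below 0 in 28 of 28 genes at 22°C. The median was -0.40, and 45.8% of all genes were below 0. These 22°C values restate the difference of the rh10-1 effect between backgrounds given above and are no second result. At 26°C the departure was above 0 in 12 of 28 genes, beside 49.2% of all genes, with a median of -0.028. Averaged over temperatures its median was -0.23, and it became 0.06 when the Col-0 array at 22°C was left out. With limma, none of the 28 genes was called for this departure from additivity, beside 0% of all genes, and none had an unadjusted p under 0.05, as against 172 of the 8399 genes. The Col-0 array enters all 3 ratios, so that the ratios share its error.

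The other genes of cytosolic ribosomes are given for comparison. Of 79 kept genes of the large subunit, 58 were called lower and 1 higher at 26°C, with a median log2 difference of -0.88, and the rh10-1 effect at 22°C was above 0 in 76, with a median of 0.49 and 1 gene called. At 26°C the median rh10-1 effect of these genes was 0.07. The called gene was AT2G40010, of the acidic P0 protein of the stalk, with an rh10-1 effect of 1.99 ± 0.24 (SE; limma adjusted p = 0.00819) at 22°C. At 26°C the gene called for rh10-1 was AT3G28500, which encodes an acidic P protein of the stalk, with an effect of 2.04 ± 0.25 (SE; limma adjusted p = 0.00311).

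Of 14 kept genes of nucleolar ribosome biogenesis, which include RH10, all had an rh10-1 effect above 0 at 22°C, with a median of 0.69 and 1 gene called. That gene was AT3G12860, of a NOP56-like protein of the snoRNA particles that modify rRNA, at 1.61 ± 0.23 (SE; limma adjusted p = 0.0206). At 26°C against 22°C, 8 of the 14 were called lower and 1 higher, with a median of -0.88, although the median ratio in Col-0 alone was 0.05. The 3 kept genes of the plastid small subunit, which is built in another compartment, had rh10-1 effects of 0.10 to 0.21 at 22°C, none of them called. Between temperatures, 2 of these 3 were called lower at 26°C and 1 higher, with a median of -0.69, close to that of the RPS genes. The difference between these lists and the RPS genes was not tested.

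**Figure D4:**
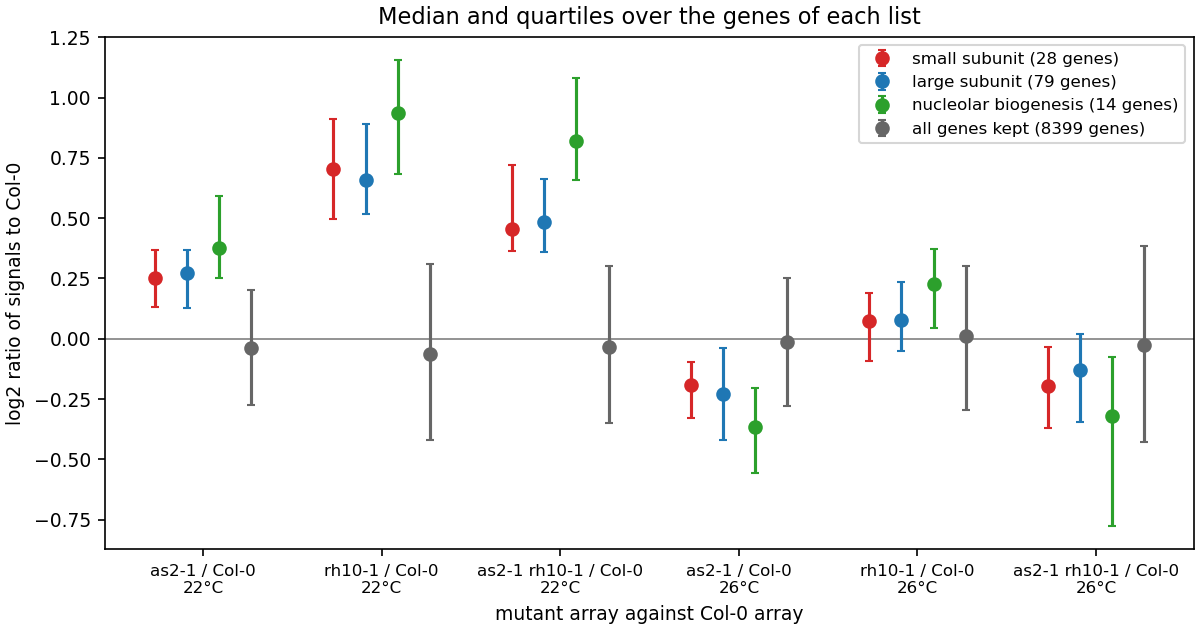
Median (points) and quartiles (bars) of the log2 ratio of each mutant array to the Col-0 array of its temperature, for the small-subunit genes, the large-subunit genes, the nucleolar genes and all genes kept. The ribosomal lists lie above all genes at 22°C, with rh10-1 medians of 0.71, 0.66 and 0.94, and below them at 26°C for as2-1 and the double mutant.

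Markers of dividing cells moved with temperature in the same direction as the RPS genes. Both measured markers, of 9 listed, were called lower at 26°C. AUR1, an Aurora kinase of mitosis, gave 430.5, 417.8, 385.8 and 360.1 at 22°C, and 87.3, 59.7, 173.7 and 182.4 at 26°C. PRL, an MCM protein of DNA replication, gave 691.5, 714.3, 675.2 and 513.1 at 22°C and 292.0, 194.2, 263.6 and 140.4 at 26°C. The summed signal of both ranged from 873.2 to 1132.1 at 22°C and from 253.9 to 437.3 at 26°C, and the part of dividing cells in the temperature difference was not tested. At 22°C neither marker was higher with rh10-1, with effects of -0.19 ± 0.22 for AUR1 and -0.26 ± 0.20 for PRL (SE; limma adjusted p = 0.777 and 0.631). At 26°C AUR1 was called higher with rh10-1, by 1.30 ± 0.22 (SE; limma adjusted p = 0.0169), and PRL had an effect of -0.31 ± 0.20 (SE; limma adjusted p = 0.522).

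Other markers also differed between temperatures. Of the 3 kept markers of the apex and leaf primordium, YAB3 (AT4G00180) fell by 0.63 ± 0.15 (SE; limma adjusted p = 0.0109) and the others were not called. Of the 3 markers of expanded leaves, RCA (AT2G39730), Rubisco activase, fell by 0.96 ± 0.15 (SE; limma adjusted p = 0.00151), LHCB4.2 (AT3G08940), an antenna protein of photosystem II, rose by 0.84 ± 0.24 (SE; limma adjusted p = 0.0235), and LHCB4.1 (AT5G01530) differed by 0.38 ± 0.18 (SE; limma adjusted p = 0.128). The leaf markers thus moved in both directions, and their part in the temperature difference of the RPS genes was not tested.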

How the data were processed

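RNA of 8 samples was hybridised to ATH1 arrays after labelling (GeneChip 3′ IVT Express Kit), and the authors computed signals with GCOS. The deposited values are linear intensity values for 22746 probe sets, already scaled between arrays. The naming table pairs 13513 of them with a single gene, of which 283 were dropped by their ending. Where several probe sets remained (145 genes), the brightest by mean log2 signal stood for the gene. A signal of 0 (9 in all) was set to 0.1 before log2. Genes above the 40th percentile of an array on at least 1 array were kept.

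All 8 arrays entered 2 fits with limma 3.58.1 in R 4.3.3, moderated by eBayes along an intensity trend and adjusted by Benjamini-Hochberg over 8399 genes at a threshold of 0.05. The first held genotype and temperature (3 residual degrees of freedom). The second held temperature, as2-1, rh10-1 and the interaction of each mutation with temperature (2 residual degrees of freedom). With 1 array per condition the error measures the spread between backgrounds or genotypes, not between replicate plants. Precision is limited by the small number of arrays. The procedure was tested on simulated data. The comparison of paralog gaps was chosen after seeing the data. Python 3.11.15, numpy 2.4.6, pandas 2.3.3 and matplotlib 3.10.9 were also used.

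The genes and lists were chosen with earlier results of these data known, and some genes of the family are not reported here. Family names follow general nomenclature, and paralog letters are not used because sources differ. Genes named are the 3 called with the largest difference per direction and contrast, the RPS4, RPS6, RPS7, RPS9 and RPS14 families, the 3 departing most from the median pattern, the paralogs at the ends of the 3 widest rh10-1 gaps at 22°C, genes not kept, and up to 3 per other list. Alternatives were leaving out each array, quantile normalization, no filter, centring arrays on their median, no trend, averaging the probe sets of a gene, raising low signals to the 20th percentile, other terms and a 2-fold limit.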

Additional observations from a re-analysis of the deposited data

Results flagged for a closer look

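In 6 genes the rh10-1 effect was positive in both backgrounds at 22°C and negative in both at 26°C. The effect at 26°C less that at 22°C was -0.4858 in AT5G35530 (RPS3), -0.9394 in AT3G02560 (RPS7), -0.5303 in AT4G25740 (RPS10), -0.4872 in AT5G52650 (RPS10), -0.8629 in AT2G32060 (RPS12) and -0.6909 in AT3G47370 (RPS20). In the limma test of this difference no gene passed, with adjusted p of 0.215 to 0.490. The 6 genes are 21.4% of the 28, and 18.03% of all 8399 genes had effects of opposite sign at the temperatures. The share over all genes is not split by the order of the signs, and no excess is read from the 6 genes.

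In 4 genes the as2-1 effect was positive in both backgrounds at 22°C and negative in both at 26°C, with differences of -0.4845 in AT1G48830 (RPS7), -0.3286 in AT4G25740 (RPS10), -0.3373 in AT5G52650 (RPS10) and -0.5182 in AT5G61170 (RPS19). None passed the limma test of the difference, with adjusted p of 0.826 to 0.883. The 4 genes are 14.3% of the 28, beside 11.4% of all genes with effects of opposite sign. That share, too, is not split by the order of the signs, and no excess is read from the 4 genes.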

How the results depend on the processing

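The count of genes called for temperature was 14 to 19 under the other settings and 11 to 17 with each array left out, with 11 without the as2-1 array at 26°C, and all 28 rh10-1 effects at 22°C stayed above 0 under quantile normalization and centring on the median. Without the Col-0 or the rh10-1 array at 22°C, 24 of the 28 were above 0 with a median of 0.30, and without the as2-1 or the as2-1 rh10-1 array at 22°C the median was 0.71. The 1 call for rh10-1 at 22°C became 0 without the intensity trend, 2 with an as2-1 by rh10-1 term and 0 to 4 with an array left out: 0 without any 22°C array and 4 without any 26°C array. With that term the rh10-1 effect, at 22°C and at 26°C, is that in the wild-type background and not the mean over both backgrounds. Its median at 26°C was then 0.1347. The median of the mean rh10-1 effect at 26°C was 0.0072 to 0.0747 with an array left out. The median as2-1 effect at 26°C was -0.1931 after centring and -0.238 to -0.1928 with an array left out. With the term, the as2-1 effect is likewise that without rh10-1, and its median at 26°C was -0.1191. The median departure from additivity was -0.4672 to 0.058 with an array left out, the latter without the Col-0 array at 22°C. The median as2-1 effect at 22°C, not called for any gene, was -0.18 without the Col-0 or the as2-1 array at 22°C. For as2-1 rh10-1 against Col-0 at 22°C, 5 genes were higher after quantile normalization and 1 at 2-fold, and 1 was lower with no filter. At 26°C 2 were higher after centring, and 0 were higher and 0 lower at 2-fold. The causes were not tested. No paired analysis was possible because no condition has a second array to number, beyond the pairing of arrays by genotype that the temperature fit already holds. The departure from additivity has no fit with other terms. Fits with 1 array left out take the spread from the other conditions.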
